A study of Mus musculus with 8 samples.

Results

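Loss of the histone demethylases encoded by Kdm6a and Kdm6b was examined at mouse genes whose symbol starts with Zfp, the prefix given to zinc finger proteins. The members were chosen by a measured value: they are the 7 Zfp genes that the authors' deposited table names at a region whose trimethylation of histone H3 at lysine 27 (H3K27me3) differed between the groups at a false discovery rate (FDR) under 0.05. Each lay at 1 region, so 7 of the 378 listed regions are described, namely those at Zfp72, Zfp78, Zfp385b, Zfp516, Zfp575, Zfp639 and Zfp711. H3K27me3 was measured by chromatin immunoprecipitation and sequencing of micrococcal-nuclease-digested chromatin from jejunal crypt epithelium of female mice. The control group (4 samples, genotype Control/WT) and the DKO group (4 samples, Kdm6a/Kdm6b knockout) were both taken 7 days after ablation. The labels used here do not name the Cre driver or say whether samples are single animals. The table compares the groups and carries no value per sample, so library depth is unknown, the spread between replicates cannot be seen, no fold change has a standard error, and crypt marker genes could not be checked. It also names no reference group. "Up" and "down" are its own words, and down means less H3K27me3 in DKO than in control only if control was the reference, as is customary.

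H3K27me3 is written by Polycomb repressive complex PRC2 at silent genes, and the enzymes encoded by Kdm6a and Kdm6b (UTX and JMJD3) remove it. Most Zfp genes encode proteins with C2H2 fingers, short folds held by a zinc ion that read DNA, but the prefix is a naming convention and not one family. Many C2H2 proteins also carry a KRAB box, which recruits the corepressor TRIM28 and the H3K9 methyltransferase SETDB1, and their genes often sit in clusters that arose by duplication. By known protein class, Zfp72 and Zfp78 were placed with the KRAB type and the other 5 were not. No protein sequence was used to check these classes.

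H3K27me3 was listed as down at 6 of the 7 Zfp genes and as up at Zfp575. Among all listed regions 120 were down and 258 up. Among all Zfp genes, 7 of 400 protein-coding ones (1.75%) were assigned a listed region, beside 286 of 21900 protein-coding genes (1.31%). The table's p-values and FDR values imply 58963 regions tested, of which 0.641% were called, 0.204% as down and 0.438% as up. Because being called is what made a gene a member, nothing is read from these counts and none was tested. Unless the best window is named, each log2 or fold value of a region is that of its representative window. It is no average over the region. The 6 down changes in the authors' deposited table lay between -1.02 and -0.79 on the log2 scale. Their median was -0.85, beside a median of -0.88 over all 120 down regions. None of the 7 was among the lowest FDR values listed: by FDR they ranked from 155 to 371 of 378.

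**Figure D1:**
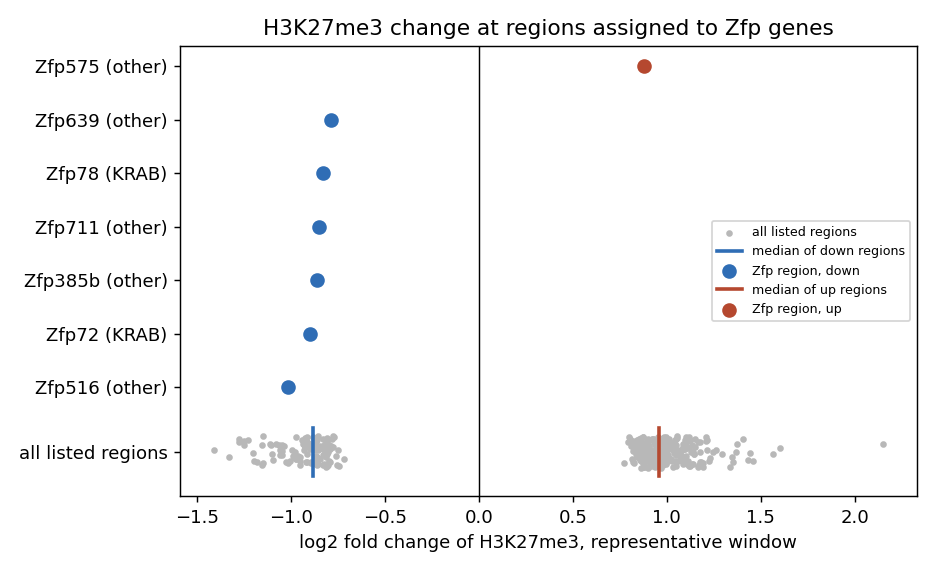
Change in H3K27me3 at the 7 Zfp regions (rows, with protein class in brackets) as the log2 fold change of the representative window in the authors' deposited table. Grey points are all 378 listed regions, spread vertically for legibility, with the median of each direction as a bar; the 6 down members lie between -1.02 and -0.79 and Zfp575 lies at 0.88.

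The down regions of both KRAB-type genes crossed the gene's 5′ end, but they differed widely in length. The positions of the windows counted down within a region are not given. Zfp78, which RefSeq also lists as KRAB12, had a down region at chromosome 7, 6360501 to 6363500 (mm10), spanning 3.0 kb. The authors' deposited table gives it a value of -0.83 (0.564-fold), an FDR of 0.0202 and 8 of 8 windows down. The best window of this region had a slightly larger change, -0.84, in the authors' deposited table. It was annotated to the promoter and exons, and on the RefSeq gene (6362809 to 6382606) it ran from 2.31 kb upstream of the 5′ end to 0.691 kb inside.

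Zfp72, on chromosome 13, had a down region at 74390501 to 74416000, 25.5 kb wide, with the authors' deposited table giving -0.90 (0.537-fold) and an FDR of 0.0359. Of its 124 windows 39 were counted down and 0 up. The table labels it promoter and exon, yet 98.6% of its length lay upstream of the RefSeq gene (74369321 to 74390861, minus strand) and 0.361 kb inside it. The upstream part also held the RefSeq pseudogene Ftl1-ps1, the microRNA gene Mir692-3 and 91.3% of the noncoding gene Gm41004. The table names a microRNA there as Mir692-2. RefSeq places Mir692-3, with the synonym Mir692-2b, at that position. The Zfp72 region was thus mostly an upstream interval with other annotated genes, while the Zfp78 region stayed within 2.31 kb of its gene.

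The promoter table of RefSeq (GRCm38.p6) held entries for 4 of the 7 members, and 3 of their 8 windows, those of Zfp639, Zfp72 and Zfp78, lay inside the down regions. They are shown because they are promoter sequence inside the listed regions. Whether windows counted down fall on these bases is not known for any of the 3, since window positions are not given. Windows counted down were 5 of 13 at Zfp639, 39 of 124 at Zfp72 and 8 of 8 at Zfp78. CG dinucleotides, which are dense in CpG islands, differ in number between the 3 sequences. Each line gives the 250 bases before a RefSeq transcript start, 5′ to 3′ on the gene's strand, with CG in capitals. The windows are chr3:32510342-32510591 (plus strand), chr13:74390830-74391079 (minus strand) and chr7:6363058-6363307 (plus strand). The transcript starts lie 328, 32 and 499 bases inside the outermost 5′ end of Zfp639, Zfp72 and Zfp78.
Zfp639: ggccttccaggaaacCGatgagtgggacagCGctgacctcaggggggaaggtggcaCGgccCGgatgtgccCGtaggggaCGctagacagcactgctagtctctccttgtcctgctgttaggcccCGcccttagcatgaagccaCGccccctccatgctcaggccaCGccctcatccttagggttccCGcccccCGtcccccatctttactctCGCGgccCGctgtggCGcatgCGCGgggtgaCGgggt
Zfp72: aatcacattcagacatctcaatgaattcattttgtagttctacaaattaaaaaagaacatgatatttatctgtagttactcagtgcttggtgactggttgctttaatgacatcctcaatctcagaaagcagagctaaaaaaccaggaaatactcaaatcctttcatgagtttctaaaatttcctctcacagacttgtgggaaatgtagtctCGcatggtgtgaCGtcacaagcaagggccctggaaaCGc
Zfp78: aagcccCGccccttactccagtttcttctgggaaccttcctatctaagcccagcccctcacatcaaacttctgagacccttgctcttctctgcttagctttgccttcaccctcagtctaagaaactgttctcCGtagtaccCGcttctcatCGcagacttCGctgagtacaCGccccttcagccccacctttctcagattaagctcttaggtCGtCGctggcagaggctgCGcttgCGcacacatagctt

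The Zfp639 window held 18 CG dinucleotides and 66.8% G or C, the Zfp78 window 10 and 53.6%, and the Zfp72 window 3 and 38%. Over all 32851 RefSeq promoter windows of this length the median was 6 CG (interquartile range 2 to 16), and over the 408 windows of Zfp genes it was 10.5 (6 to 17). Zfp639 thus lay above the upper quartile of either set, Zfp78 near the Zfp median, and Zfp72 below the median of all windows. Of 4 motifs searched on both strands, the GC box GGGCGG occurred at Zfp639 and Zfp78, in 32.7% of all windows and in 40% of Zfp windows. The other motifs were in none of the 3 windows shown. CCAAT was in 33.8% of all and 46.3% of Zfp windows, TATAAA in 12.4% and 6.62%, and the E-box CACGTG in 6.02% and 5.39%. CCAAT and TATAAA both occurred in the other Zfp72 window, which begins at 74376567 and lies 13.7 kb outside the region. GGGCGG and CACGTG each contain a CG dinucleotide, so these searches overlap with the CG count. Matches of letters describe the sequence and show no bound factor.

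Zfp639 and Zfp711, C2H2 genes without a KRAB box, had short down regions centred near the 5′ end. ZFP639, also called ZASC1, is a C2H2 protein known as a DNA-binding transcription factor. The region at chromosome 3, 32508501 to 32511750, was 3.25 kb wide and reached from 1.76 kb upstream to 1.49 kb inside the gene (32510264 to 32520833). Its change was the smallest of the 7: the authors' deposited table has -0.79 (0.579-fold) with an FDR of 0.048 and 5 of 13 windows down. In size of change it ranked 111 of the 120 down regions.

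Zfp711 lies on the X chromosome and belongs to the ZFX family. Its human counterpart is an X-linked intellectual disability gene whose protein works with the histone demethylase PHF8. The region at X, 112598001 to 112603500, was 5.5 kb wide and covered 2.52 kb before and 2.98 kb of the gene (112600526 to 112635070). For it the authors' deposited table reads -0.85 (0.555-fold) with an FDR of 0.049, and 17 of 21 windows were down. It was 1 of 4 down regions on X, where 26 were up. Another of those 4 lay 586 kb away beside Chm, at -0.95 on the log2 scale per the authors' deposited table. Zfp639 and Zfp711 sat closest to the edge of the selection, since the highest FDR listed was 0.0498. Regions just outside that limit were not analysed here.

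**Figure D2:**
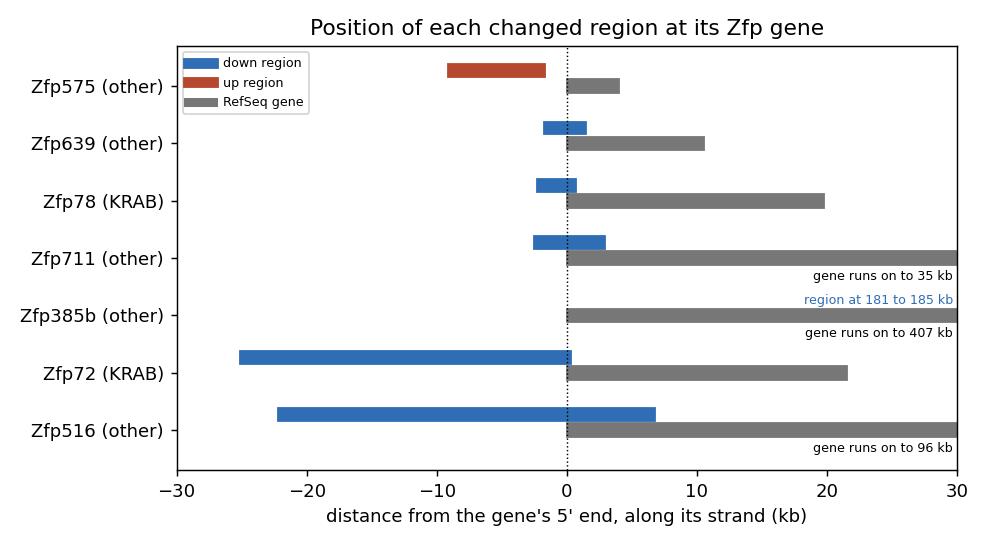
Position of each changed region (coloured bar: blue down, red up) relative to the 5′ end of its RefSeq gene (grey bar), in kb along the gene's strand, cut at 30 kb. All down regions except that of Zfp385b cross the 5′ end at 0, the Zfp385b region lies 181 to 185 kb inside its gene, and the Zfp575 region ends 1.66 kb before the gene.

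The largest log2 change of a representative window and the widest region, though not the most windows counted as changed, were at Zfp516. This gene encodes a C2H2 protein known for promoting brown fat genes together with the H3K4 demethylase LSD1. Its down region, on chromosome 18 from 82887501 to 82916500, was 29.0 kb wide, and the authors' deposited table gives -1.02 (0.494-fold) with an FDR of 0.0229. It was the only member at an absolute log2 value of at least 1, and it ranked 29 of the 120 down regions in size. Windows counted down were 31 of 164, or 18.9%, the lowest share of the 7. The region began 22.2 kb upstream of the RefSeq gene (82909688 to 83005314) and ended 6.81 kb inside it, and its upstream part held all of the noncoding gene Gm30889. A further noncoding gene, 4930592I03Rik, started 1.90 kb beyond its end.

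The one down region away from a 5′ end was at Zfp385b, whose protein has matrin-type fingers and has been linked to p53-dependent cell death. This intronic region, chromosome 2, 77632501 to 77636500, was 4.0 kb wide with 11 of 12 windows down. The authors' deposited table lists -0.86 (0.551-fold) and an FDR of 0.0338. The gene spans 407 kb (77410622 to 77817706, minus strand), and the region lay 181 to 185 kb from its outermost 5′ end. RefSeq has 4 promoter windows for this gene, and the nearest lay 10.8 kb from the region. The CpG-richest of them, with 33 CG in 250 bases, was 180 kb away, so the change did not fall on any promoter window of the gene.

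The only up region was assigned to Zfp575, a little-studied C2H2 gene, but it covers none of that gene. Its interval on chromosome 7 ran from 24589501 to 24597000. The table counts 16 of the 27 windows there as up and 0 as down, and the authors' deposited table gives 0.88 (1.84-fold) with an FDR of 0.0171. The annotation to Zfp575 is to the promoter, from the upstream side, and the table also lists this gene as flanking at 1860 bases. The region ended 1.66 kb short of the RefSeq gene (24583838 to 24587840, minus strand). All 7.5 kb lay inside the neighbouring gene Ethe1 (24587543 to 24608925), which encodes a mitochondrial persulfide dioxygenase and which the table annotates there by its exons. The 5′ ends of Zfp575 and Ethe1 overlap head to head. With Zfp genes assigned by overlap of the gene body itself, 6 regions are left, all of them down.

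The members ranged widely in width and in window counts. The spread in size of change is harder to read, because selection by FDR tends to leave out small changes. That selection set no limit on size itself. Widths of the 6 down regions ran from 3.0 to 29.0 kb with a median of 4.75 kb, beside 6.0 kb over all down regions and 11.0 kb over the 59 down regions that overlap a promoter. They fell into 4 regions of 5.5 kb or less and 2 of 25.5 kb or more, at Zfp72 and Zfp516, with none between. No listed region was wider than 31.5 kb, and whether a limit on width was set is not given. The share of windows counted as changed ran from 18.9% at Zfp516 and 31.5% at Zfp72 to 91.7% at Zfp385b and 100% at Zfp78. A narrow region did not always have a high share, as Zfp639 had 38.5%. Over the 6 down regions 111 of 342 windows were counted down, beside 2367 of 5706 over all down regions. No member had windows counted in both directions, and only 2 of the 378 listed regions did. The table does not state how it decides that a window counts, and the remaining windows may also have shifted. By annotation, 5 of the 6 member down regions overlapped a promoter, as did 59 of all 120 (49.2%). Members had to name a Zfp gene, while down regions without any named gene count among the 120, so these shares are not directly comparable. Zfp516, Zfp639 and Zfp711 were also listed as flanking, at 1254, 428 and 768 bases.

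**Figure D3:**
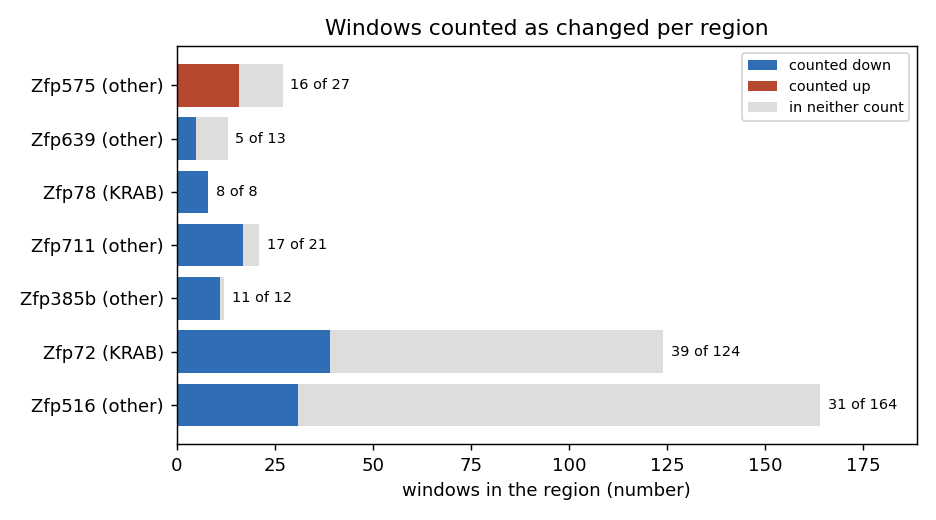
Number of windows in each Zfp region, split into those the authors' deposited table counts as down (blue), up (red) or neither (grey), with the changed windows and the total printed beside each bar. At Zfp78 8 of 8 windows were down, while at Zfp516 31 of 164 were.

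**Figure D4:**
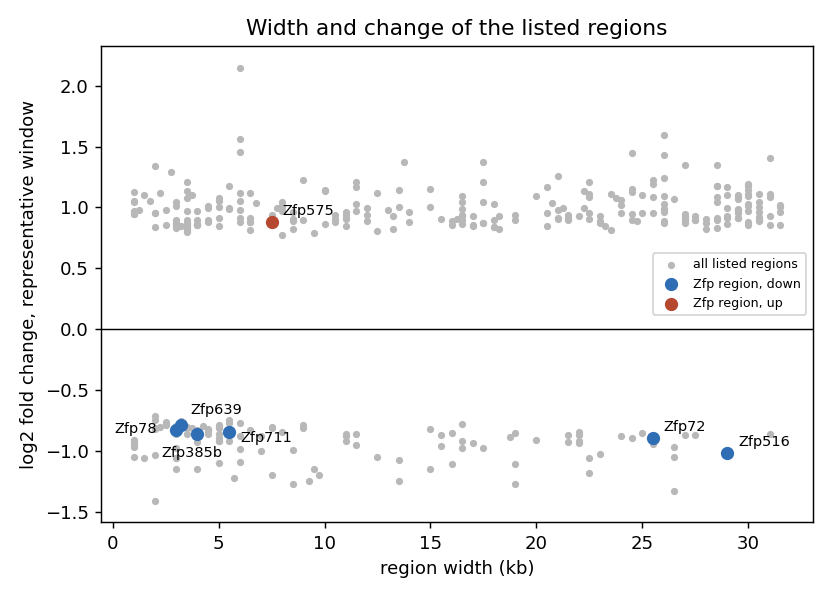
Width of each listed region (kb) against the log2 fold change of its representative window in the authors' deposited table, with the 378 listed regions in grey and the Zfp regions coloured and named. Zfp516 and Zfp72 are wide, at 29.0 and 25.5 kb, and the other down members are 5.5 kb or narrower.

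The surroundings of the members were searched for other Zfp genes. Within 1 Mb of the Zfp78 region RefSeq has 38 other protein-coding genes, of which 9 are Zfp genes, including Zfp583 (27.5 kb from the region) and Zfp28 (19.7 kb), and 0 of the 9 had a listed region. Around the Zfp575 region 13 of 69 such genes were Zfp genes, again with 0 listed. Zfp72 and Zfp516 each had 1 Zfp gene within that distance, Zfp825 and Zfp236, and neither was listed. Zfp385b, Zfp639 and Zfp711 had none. No other changed region lay within 1 Mb of any member except Zfp711, and the Zfp78 and Zfp575 regions, both on chromosome 7, were 18226 kb apart. With 1.31% of all protein-coding genes and 1.75% of Zfp genes assigned a region, these counts of 0 are near the background and say nothing particular about the neighbours. A gene outside the table was not called, which does not show that it was unchanged.

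The nearest protein-coding genes outside the regions were of varied kinds. Zfp639 stood between the potassium channel subunit gene Kcnmb3 (5.60 kb) and Mfn1, a mitochondrial fusion gene (17.7 kb). Zfp711 stood between 2010106E10Rik (39.7 kb) and the actin-binding gene Pof1b (34.9 kb), and Zfp72 between Ccdc127 (24.7 kb) and LOC115488130 (16.3 kb). For Zfp575 they were the DNA repair gene Xrcc1 (16.1 kb) and Phldb3 (13.3 kb). Zfp385b and Zfp516 were more isolated, with the nearest at 245 kb (Cwc22) and 195 kb (Zfp236). None of the listed regions assigned to the members named any of these neighbours.

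Lists of genes related to the members by function or family were looked up in the same way. Of 57 genes in 5 lists, of which 56 matched a RefSeq symbol, 0 were assigned an up region and 0 a down region, which for lists of this size is near the 1.31% assigned over all protein-coding genes. The lists were 16 genes of the KRAB repressor machinery such as Trim28 and Setdb1, 6 of the ZFX family and its partners such as Zfx and Phf8, and the 3 relatives of Zfp385b. The others were 11 partners of Zfp516 and brown fat genes such as Kdm1a and Prdm16, and 21 zinc finger regulators of gut or epithelial cells such as Klf4, Klf5 and Gfi1. Among 157 protein-coding genes with the symbol prefixes of other zinc finger families, 3 were assigned a region, again near the background of 286 of 21900. One of these, Glipr2, shares only its first letters with the Gli genes and is no zinc finger gene. Zbtb16, which encodes the BTB-domain zinc finger factor PLZF, lay in a down region of 31.0 kb over an exon with 22 of 177 windows down, and the authors' deposited table gives -0.86 with an FDR of 0.0294. Egr3, an immediate-early zinc finger gene, was named as flanking, 4703 bases from an up region, with 0.86 on the log2 scale and an FDR of 0.0293 per the authors' deposited table. That region lay over an exon of Pebp4.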

How the data were processed

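H3K27me3 ChIP-seq of 4 control and 4 DKO samples was analysed from 1 deposited table of the authors' comparison. Per the submitters' processing notes the build was mm10, and the tools were Bowtie 0.12.7, SICER 1.0.3, edgeR without a version, Picard 1.141, SAMtools 1.11 and FastQC 0.10.1. The name of the deposited table also includes csaw. No setting of any of these tools is given in the sources used here. Per the file headers the table holds a p-value and FDR per region, the log2 fold change of a representative and of a best window, and numbers of windows, all made by the authors. It has 0 columns of per-sample values, so no count model, depth, pairing or replicate check was possible.

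The annotation fields hold unquoted commas (17 to 21 cells for 17 headers), so all cells from 15 on were read: tokens ending in letters as overlaps (P promoter, E exon, I intron, as is usual) and tokens ending in a number as flanking genes with their distance. The implied number of tests was recovered by inverting the Benjamini-Hochberg adjustment (largest relative difference 5.7e-15), tested on simulated data. All 7 members matched a RefSeq symbol of GRCm38.p6, the build mm10; distances use the RefSeq gene's outermost 5′ end. Promoter sequences are RefSeq's. Python 3.11.15, pandas 2.3.3 and matplotlib 3.10.9 were used.

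The members, gene lists and zinc finger classes were chosen with earlier results of these data known. No test was run on the members. Every member, every gene named with one, the nearest genes, listed genes with a region and up to 8 other zinc finger genes were to be named. The alternatives tried were a limit of FDR 0.01, log2 values of 1 or more in absolute size, the overlap field alone, RefSeq genes within 5 kb, no windows of both directions and the best window.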

Additional observations from a re-analysis of the deposited data

How the results depend on the processing

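The members rest on the FDR limit. At FDR 0.01 the number of Zfp regions fell from 7 to 0, and the number of down regions from 6 to 0. When the log2 value had to be 1 or more in absolute size, 1 region was left, at Zfp516. The remaining 8 of 11 alternative values kept the count within 1.5 times or moved the median by less than the spread of the members. The overlap field alone, RefSeq genes within 5 kb and no windows of both directions each left the same 7 regions. Values taken from these regions therefore could not differ, and they show nothing about the FDR limit. The best window differed from the representative window only at Zfp78. The median of the down regions was -0.85 with the representative window, with the best window and with the overlap field alone. Assignment by overlap of the RefSeq gene body, chosen after the data were seen, left 6 regions, all down, without Zfp575. No paired analysis was possible because the table holds no value per sample, and depth limits could not be examined.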

Other observations

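Genes for other kinds of zinc-containing proteins were not searched for as a set, in either direction. Zcchc24 and Zdhhc7, both at up regions, were picked by hand after their values were seen. Zcchc24, whose protein has a CCHC-type finger, lay in an up region of 24.5 kb over exons with 65 of 135 windows up, and the authors' deposited table gives 0.90 with an FDR of 0.0123. Zdhhc7, which encodes a palmitoyltransferase with a DHHC cysteine-rich domain, lay in an up region of 3.5 kb over its promoter and exons with 8 of 10 windows up, and the authors' deposited table gives 1.08 with an FDR of 0.033. Neither is a C2H2 transcription factor, and no comparison with the Zfp genes was tested.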
